A study of Homo sapiens with 12 samples.

Results

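The genes described here are SRF and 9 genes of the actin cytoskeleton that are known as its targets: VCL, ACTN1, FLNA, MYH9, MYL9, TPM1, TPM4, TAGLN and ZYX. They were found by Ensembl identifier among the 58051 genes of 2 count tables, one over whole gene bodies and one over exons, and all 10 were measured and passed the filter on low counts in both. RNA came from HCT116, an established human colon carcinoma cell line, in which PFDN2 (siPFDN2) or PFDN5 (siPFDN5) was targeted by siRNA, a synthetic duplex that directs cleavage of a matching messenger RNA, or which received a control duplex (siControl). Both targets are subunits of the prefoldin complex, which passes newly made actin and tubulin to the chaperonin TRiC. At 24 h after the siRNA the cells of every group lost serum for 48 h, and they were harvested before serum was returned or 90 min after it. The 6 groups of 3 siRNAs and 2 times had 2 libraries each, made from total RNA with random primers, so that RNA still holding introns was sequenced beside spliced RNA. Nothing in the labels says that the 2 libraries of a group came from separate cultures, so the p-values measure only the spread between these libraries.

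SRF (serum response factor) is a transcription factor that binds CArG boxes. In starved cells its cofactors of the MRTF family are held by monomeric actin, and serum frees them as actin polymerises, while a second set of cofactors, the ternary complex factors, answers to MAP kinases. SRF and genes of focal adhesions and actin filaments are among the genes that MRTF and SRF are known to switch on. A count over introns stands for RNA that has been made but not yet spliced, and at a time soon after a stimulus it can move while the larger pool of spliced RNA has hardly changed.

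Promoter sequence was examined because the CArG box is what SRF recognises. RefSeq transcript starts on GRCh38.p14 were matched for 8 of the 10 genes (all but MYL9 and TAGLN), and the windows from 250 bases before to 50 bases after each start were searched for a CArG box (CC, then 6 bases that are each A or T, then GG, a pattern that reads the same on both strands). A box was found for SRF, FLNA, TPM4 and ACTN1, in 4 of 14 windows. Over all promoter windows of that length 1.29% of 35116 held a box, and 1.60% of 27305 genes did. SRF had 2 boxes in 1 window, as did 0.0313% of all windows. The 30 bases around each box follow, 5′ to 3′ on the gene's strand, with the box in capitals.
SRF, first box: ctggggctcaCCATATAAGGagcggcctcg
SRF, second box: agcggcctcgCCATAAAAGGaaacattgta
FLNA: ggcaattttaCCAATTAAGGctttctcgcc
TPM4: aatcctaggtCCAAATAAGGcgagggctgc
ACTN1: acgctcatgtCCAAAAATGGtaacattcat
The SRF windows are chr6:43171229-43171258 and chr6:43171249-43171278 on the plus strand, and their boxes began 30 and 10 bases before the transcript start. The FLNA window is chrX:154374709-154374738 on the minus strand, with the box 94 bases before the start. The TPM4 window is chr19:16067355-16067384 on the plus strand, 173 bases before a start, and the ACTN1 window is chr14:68977718-68977747 on the minus strand, 171 bases before 1 of its 4 starts. A match describes these letters and is not a measured site, and the windows without one say nothing about binding elsewhere.

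Per library the counts summed to between 46158398 and 114454288 over exons and between 12894813 and 22050302 over introns, so introns held 14.8% to 25.9% of a library. Levels are given as CPM (the counts-per-million level) with TMM scaling, except that marker levels were taken per exon total without it. Of the colon epithelial markers, 7 of 9 averaged at least 1 CPM, and the 9 summed to 2395 to 3504 CPM per library, with CDX1 and LGR5 near 0. The 7 smooth muscle and fibroblast markers summed to 13.6 to 36.9 CPM. The second siPFDN2 library before serum stood apart: its gene levels followed GC content (Spearman rank correlation 0.841 across genes, against -0.529 to 0.0463 in the other 11 libraries), and the 2 libraries of that group differed with an SD of 0.716 on the log2 scale against 0.106 to 0.183 in the others. PFDN2 stood at 6.52 and 6.66 exon CPM with siPFDN2 against 11.1 and 11.1 with siControl before serum, and at 7.96 and 9.42 against 20.3 and 17.02 after it. PFDN5 stood at 52.2 and 55.5 CPM with siPFDN5 against 94.1 and 84.3 with siControl before serum, and in the libraries labelled siPFDN5 after serum at 78.0 and 79.6 CPM against 87.3 and 90.1. In the edgeR fit none of these differences passed: PFDN2 was at -0.75 before (adjusted p = 0.359) and -1.10 after serum (adjusted p = 0.906), and PFDN5 at -0.73 (adjusted p = 0.179) and -0.17 (adjusted p = 0.506). By DESeq2 the first 3 passed (adjusted p 0.0233, 7.44e-05 and 5.27e-05) and PFDN5 after serum did not (adjusted p = 0.574). In the siPFDN5 libraries PFDN2 stood at 24.2 and 22.8 CPM before and 24.9 and 31.6 after serum, above every siControl library of the same time. Because PFDN5 after serum passed by neither tool, values from these libraries are given under their label.

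SRF itself rose in all 3 siRNA treatments. Its gene, at 6:43171299-43181507 on GRCh38 and overlapped by no other gene, had 36.9 and 34.1 exon CPM in the siControl libraries before serum and 156 and 161 after it. With siPFDN2 it had 39.5 and 66.8 CPM before and 142 and 149 after, and in the siPFDN5 libraries 31.3 and 34.0 CPM before and 147 and 161 after. The libraries after serum lay within a narrow range whatever the siRNA, above every library before serum, and the highest value before serum belonged to the siPFDN2 library that stood apart. The exon change was 2.16 on the log2 scale in siControl (4.47-fold, SE 0.21, adjusted p = 0.000322), 1.45 in siPFDN2 (2.74-fold, SE 0.21, adjusted p = 0.00455) and 2.24 in siPFDN5 (4.72-fold, SE 0.22, adjusted p = 0.000271). Without the second siPFDN2 library after serum, the siPFDN2 change was 1.36 (adjusted p = 0.0854).

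VCL and TAGLN were the other members called in every siRNA. VCL encodes vinculin, which links talin at focal adhesions to actin filaments. It went from 211 and 224 exon CPM to 410 and 467 in siControl, from 230 and 267 to 467 and 391 in siPFDN2, and from 205 and 204 to 472 and 443 in siPFDN5. These are log2 changes of 1.01 (SE 0.14, adjusted p = 0.00324), 0.79 (SE 0.14, adjusted p = 0.0154) and 1.16 (SE 0.14, adjusted p = 0.00123), close to a doubling in each, with no overlap between libraries before and after serum. TAGLN, which encodes the actin-binding protein transgelin (SM22) and is mainly known from smooth muscle, was the member with the lowest exon level per kilobase before serum, while after serum it stood above TPM1 in each siRNA (2.20 against 1.36 CPM per kilobase in siControl). It went from 2.22 and 1.76 CPM to 7.83 and 9.38 in siControl, from 1.73 and 3.05 to 7.25 and 6.49 in siPFDN2, and from 1.49 and 1.73 to 9.54 and 11.4 in siPFDN5. Its log2 changes were 2.11 (SE 0.26, adjusted p = 0.00129), 1.52 (SE 0.25, adjusted p = 0.0107) and 2.70 (SE 0.27, adjusted p = 0.000341), the last 6.48-fold. Without TMM scaling, the 7 smooth muscle and fibroblast markers, of which 3 reached 1 CPM, summed to 14.3 and 15.5 CPM before and 21.2 and 25.0 after serum in siControl. In siPFDN5 they summed to 16.94 and 17.05 before and 15.0 and 18.2 after, and their part in the TAGLN change was not tested.

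MYL9 and TPM4 were called in some siRNAs. MYL9 encodes a regulatory light chain of non-muscle and smooth muscle myosin II. It stood at 19.6 and 19.8 exon CPM before and 34.0 and 39.9 after serum in siControl (log2 change 0.91, SE 0.19, adjusted p = 0.0353), and at 20.5 and 20.99 before and 45.97 and 46.34 after in siPFDN5 (1.15, SE 0.19, adjusted p = 0.00975). With siPFDN2 its values were 17.7 and 27.4 before and 35.1 and 33.0 after (0.59, SE 0.19, adjusted p = 0.109). TPM4 encodes a tropomyosin that runs along non-muscle actin filaments. Its exon CPM went from 250 and 158 to 429 and 428 in siPFDN2 (1.07, SE 0.19, adjusted p = 0.0153) and from 259 and 267 to 496 and 460 in siPFDN5 (0.86, SE 0.19, adjusted p = 0.0353), and in siControl its values were 230 and 252 before and 347 and 393 after (0.62, SE 0.19, adjusted p = 0.176).

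The other members did not pass the test on exons in any siRNA. ZYX encodes zyxin, an adaptor of focal adhesions and stress fibres, and its exon CPM in siControl was 43.1 and 37.3 before and 97.3 and 90.3 after serum (1.22, SE 0.36, adjusted p = 0.159). MYH9, the heavy chain of non-muscle myosin IIA, had 256 and 256 CPM before and 622 and 477 after (1.10, SE 0.31, adjusted p = 0.131). In both genes the siControl libraries before and after serum did not overlap. The spread was estimated over all groups, and in the siPFDN2 group before serum ZYX stood at 40.0 and 114 CPM and MYH9 at 249 and 589, the higher value each time in the library that stood apart. ACTN1 and FLNA encode alpha-actinin and filamin A, which crosslink actin filaments. Their exon log2 changes in siControl, siPFDN2 and siPFDN5 were 0.55, -0.57 and -0.10 for ACTN1 and 0.30, -0.58 and -0.17 for FLNA (SE 0.24 and 0.25). In the siPFDN2 library that stood apart ACTN1 had 238 and FLNA 966 CPM, against 126 and 489 in the other library of its group. TPM1, a further tropomyosin, had between 12.8 and 19.5 CPM in all 12 libraries and log2 changes of -0.01, 0.21 and 0.30 (SE 0.14).

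**Figure D1:**
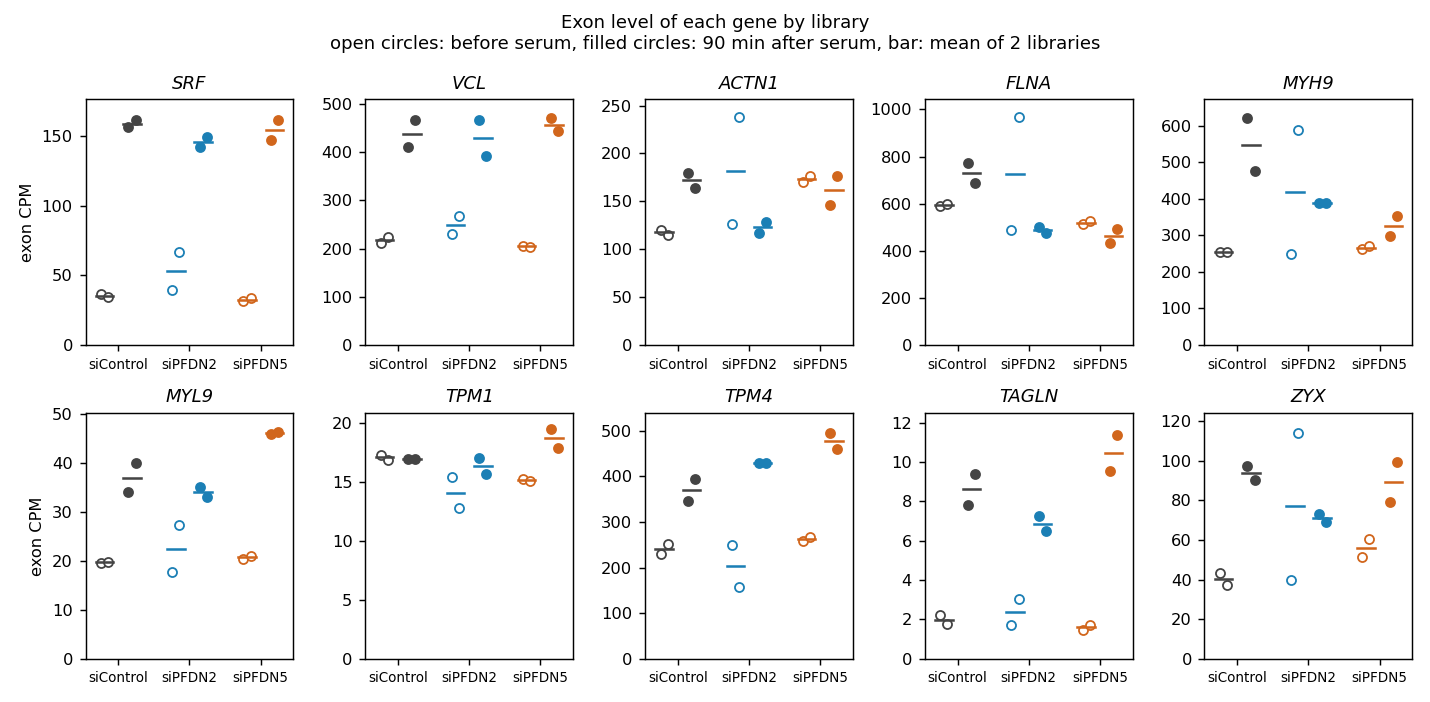
Exon level of each gene in CPM (linear axes from 0) in every library, with open circles before serum, filled circles 90 min after serum, colours for the siRNA and bars at the mean of 2 libraries. SRF, VCL and TAGLN were higher after serum in each siRNA without overlap, and the siPFDN2 library before serum that stood apart was high for ACTN1, FLNA, MYH9 and ZYX.

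Over exons, serum thus raised 4 of the 10 genes in siControl, where 1.73% of the 24889 genes tested were called higher. The counts were 4 in siPFDN2 (1.67% of all genes called higher) and 5 in siPFDN5 (2.72%), and none of the 10 was called lower in any (0.394%, 0.86% and 1.49% of all genes). Averaged over the 3 siRNAs the 5 called genes were SRF, TAGLN, VCL, MYL9 and TPM4 (5.85% of all genes called higher and 5.11% lower), with log2 changes of 1.95, 2.11, 0.99, 0.89 and 0.85. The median change of the 10 genes in siControl was 0.96, and that of all genes tested -0.0045. Without the second siPFDN2 library before serum, 9 of the 10 were called higher in siControl (all but TPM1, with 12% of all genes called in either direction), 7 in siPFDN2 (5.46%) and 8 in siPFDN5 (32.8%). The lone library left in that group was then assumed to vary like the other groups. MYL9 in siControl and TPM4 in siPFDN5 each lost the call when any 1 of 10 libraries was left out (MYL9 0.78 to 1.02, adjusted p 0.0769 to 0.303, and TPM4 0.82 to 0.93, adjusted p 0.0505 to 0.250), that is all but the siPFDN2 libraries before serum. VCL in siControl lost its call without either siControl library before serum (0.96 and 1.05, adjusted p 0.0795 and 0.0517). In siPFDN2, VCL, TAGLN and TPM4 lost theirs without either library after serum (adjusted p 0.0827 to 0.215), and in siPFDN5 MYL9 did without any 1 of the 4 siPFDN5 libraries (adjusted p 0.0700 to 0.130).

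Over introns the response was broader and, for most of the genes, larger. Intron CPM is relative to the intron total of the library with its own TMM factor, so a change is relative to the introns of most genes. On that scale both libraries after serum lay above both before it for all 10 genes, in each of the 3 siRNAs. The share of all genes that did so was not counted. Per intron total without TMM factors, ACTN1 and TPM1 overlapped in siPFDN2 and siPFDN5, and TAGLN in siPFDN2. In siControl 9 of the 10 were called higher (6.25% of the 19731 genes tested), in siPFDN2 8 (5.45%) and in siPFDN5 8 (13.3%), and on average over the siRNAs all 10 (14.2%). The median intron change of the 10 genes was 2.0 in siControl, 1.54 in siPFDN2 and 1.79 in siPFDN5, against -0.0096, -0.023 and -0.026 for all genes tested.

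VCL and MYL9 changed most. VCL spans 126 kb at 10:73995193-74121363, and introns make up 116 kb of it. Its introns held 63.7 and 68.8 CPM before serum and 992 and 628 after it in siControl, 71.6 and 61.7 before and 632 and 580 after in siPFDN2, and 72.6 and 65.1 before and 336 and 349 after in siPFDN5. All 6 libraries before serum lay close together. After serum the siPFDN5 libraries were lowest and the first siControl library highest, while the second siControl library (628) lay between the siPFDN2 libraries (632 and 580). The log2 changes were 3.61 (12.2-fold, SE 0.28, adjusted p = 4.91e-07), 3.18 (9.09-fold, SE 0.28, adjusted p = 1.89e-06) and 2.31 (4.98-fold, SE 0.27, adjusted p = 4.83e-05). MYL9, a gene of 9.96 kb at 20:36541484-36551447, had 4.96 and 3.40 intron CPM before and 56.1 and 63.3 after serum in siControl, 4.06 and 5.19 before and 56.2 and 42.1 after in siPFDN2, and 4.91 and 2.30 before and 38.2 and 36.1 after in siPFDN5. That is a change of 3.84 in siControl (14.3-fold, SE 0.31, adjusted p = 8.18e-07), 3.40 in siPFDN2 (10.6-fold, SE 0.31, adjusted p = 2.74e-06) and 3.36 in siPFDN5 (10.3-fold, SE 0.32, adjusted p = 7.03e-06). In siControl 0.29% of all genes had a larger intron change than VCL and 0.24% a larger one than MYL9.

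Intron counts also rose for genes whose exons did not pass. MYH9, at 22:36281281-36388018, went from 72.6 and 78.0 intron CPM to 367 and 295 in siControl (2.14, SE 0.25, adjusted p = 3.02e-05), from 86.7 and 112 to 312 and 276 in siPFDN2 (1.57, SE 0.24, adjusted p = 0.000607) and from 69.7 and 63.6 to 224 and 233 in siPFDN5 (1.78, SE 0.25, adjusted p = 0.000226). ZYX, at 7:143381080-143391111, went from 4.05 and 2.75 to 17.4 and 12.6 CPM in siControl (2.15, SE 0.31, adjusted p = 0.000222), with 1.83 in siPFDN2 and 1.56 in siPFDN5 (adjusted p 0.00109 and 0.00391). FLNA, at X:154348524-154374638 and overlapped by no other gene, went from 21.3 and 16.2 intron CPM to 39.5 and 65.9 in siControl (1.49, SE 0.29, adjusted p = 0.00293), from 17.8 and 25.1 to 73.0 and 46.8 in siPFDN2 (1.48, SE 0.29, adjusted p = 0.00353) and from 9.96 and 9.69 to 50.6 and 45.4 in siPFDN5 (2.29, SE 0.30, adjusted p = 0.000160). Without the second siControl library before serum the siControl change was 1.31 (adjusted p = 0.0624). Without the first siPFDN2 library after serum the siPFDN2 change of FLNA was 1.13 (adjusted p = 0.0721).

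SRF and TPM4 rose over introns in each siRNA. SRF had 4.68 and 3.25 intron CPM before and 13.1 and 16.0 after serum in siControl, 3.43 and 4.07 before and 18.7 and 12.6 after in siPFDN2, and 3.25 and 2.94 before and 12.4 and 10.7 after in siPFDN5. The changes were 1.88, 2.05 and 1.90 (SE 0.26, 0.27 and 0.28, adjusted p 0.000174, 0.000114 and 0.000415). TPM4, at 19:16067021-16103005, changed by 2.13 in siControl, from 13.5 and 11.7 to 60.3 and 49.7 CPM (SE 0.28, adjusted p = 0.000108). It changed by 1.51 in siPFDN2 and 1.48 in siPFDN5 (SE 0.28 in each, adjusted p 0.00226 and 0.00243).

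The remaining members were called in fewer siRNAs. ACTN1, at 14:68874143-68979440, had 43.5 and 45.0 intron CPM before and 142 and 92.2 after serum in siControl (1.41, SE 0.25, adjusted p = 0.00173). With siPFDN2 it had 44.9 and 60.2 before and 86.8 and 78.5 after (0.65, SE 0.25, adjusted p = 0.0990), and in siPFDN5 58.0 and 53.8 before and 62.2 and 66.7 after (0.21, SE 0.25, adjusted p = 0.568). TPM1, at 15:63042632-63071915, was called in siControl (1.15, SE 0.31, adjusted p = 0.0255) and siPFDN2 (1.06, SE 0.33, adjusted p = 0.0437), but its siControl call was lost without either siControl library before serum or the first after it (1.00 to 1.20, adjusted p 0.147 to 0.160), and its siPFDN2 call without any 1 of 9 libraries (0.60 to 1.09, adjusted p 0.0568 to 0.357). TAGLN, at 11:117199321-117204782, has 1.55 kb of introns and lies antisense to PCSK7. Its intron CPM was 1.60 and 1.70 before and 2.13 and 3.28 after serum in siControl (0.72, SE 0.37, adjusted p = 0.270), and 0.505 and 1.08 before and 2.89 and 2.71 after in siPFDN5 (1.81, SE 0.44, adjusted p = 0.00861). The TAGLN call in siPFDN5 was lost without the first siPFDN5 library before serum (1.37, adjusted p = 0.122) or without either after it.

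**Figure D2:**
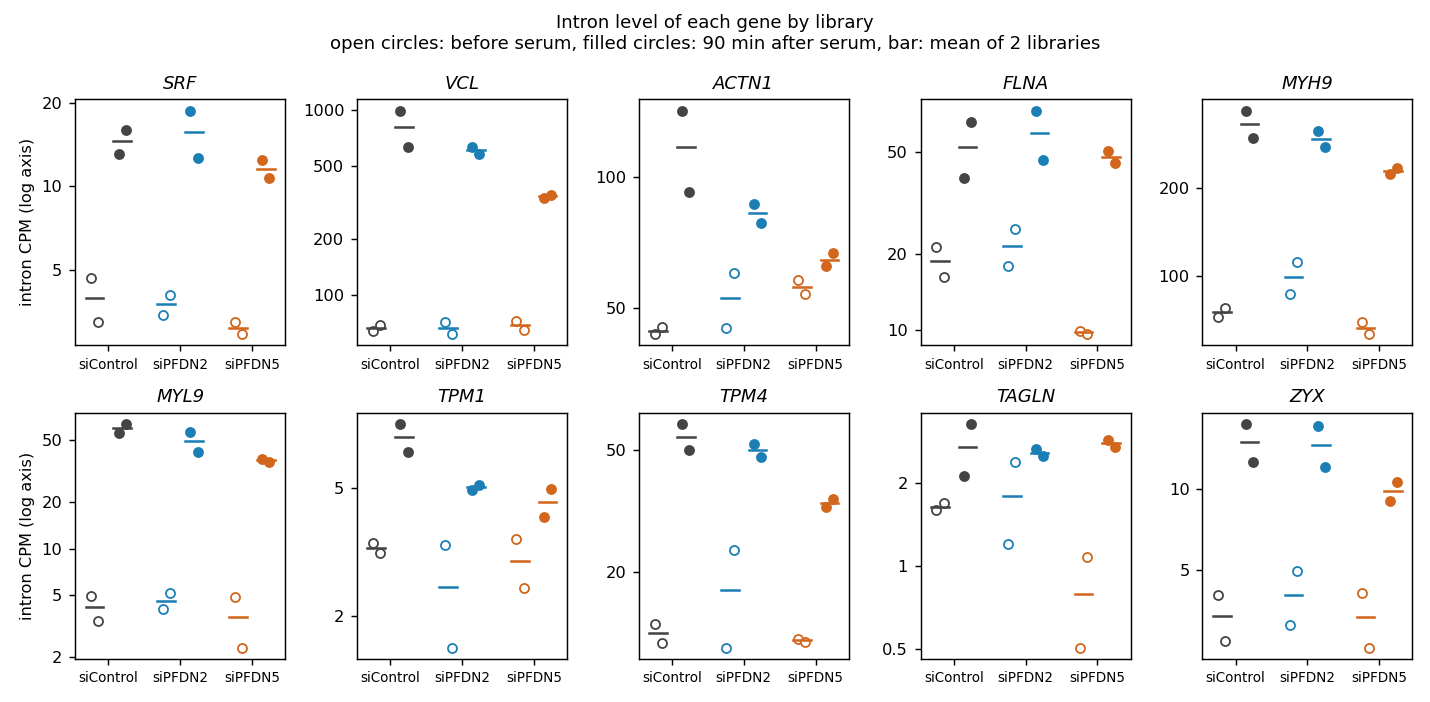
Intron level of each gene in CPM relative to the library's intron total with its TMM factor (log axes) in every library, with open circles before serum, filled circles 90 min after serum, colours for the siRNA and bars at the mean of 2 libraries. On this scale all 10 genes were higher after serum in both libraries of each siRNA, and the share of all genes that were was not counted. VCL reached 992 and 628 in siControl against 336 and 349 in the libraries labelled siPFDN5.

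These intron values have 2 limits. Counting used no strand, and only SRF and FLNA overlap no other annotated gene: reads of VCL cannot be told apart from those of AP3M1 where they overlap, nor those of ZYX from EPHA1, MYL9 from DLGAP4-AS1, TPM1 from TPM1-AS or TAGLN from PCSK7. The second limit is scaling. Introns held 22.8% and 25.9% of the siPFDN5 libraries before serum but 17.2% and 14.8% of those after it, so scaling introns with the exon factors lowered the median serum change of all genes by 0.81 in siPFDN5 and by 0.20 in siPFDN2, and raised it by 0.16 in siControl. On that scale 9, 6 and 5 of the 10 genes were called higher in siControl, siPFDN2 and siPFDN5, the siPFDN5 changes of MYL9, VCL, FLNA, SRF and MYH9 being 2.53, 1.497, 1.47, 1.08 and 0.96, while ACTN1 and TPM1 in siPFDN5 turned to -0.61 and -0.20 (not called). Of all genes tested 5.36%, 7.05% and 46.5% were then called in either direction, with 924 higher and 133 lower in siControl, 459 and 932 in siPFDN2 and 365 and 8813 in siPFDN5.

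The intron change was next set against the exon change within each library. In siControl it was larger for MYL9 (by 2.95 on the log2 scale, SE 0.29, adjusted p = 3.61e-05), VCL (2.57, SE 0.26, adjusted p = 4.31e-05), TPM4 (1.51, SE 0.37, adjusted p = 0.0309), FLNA (1.17, SE 0.30, adjusted p = 0.0372), TPM1 (1.15, SE 0.27, adjusted p = 0.0244) and MYH9 (1.04, SE 0.25, adjusted p = 0.0244). These are 6 of the 10 genes, where 2.78% of the 17390 genes tested had a larger intron change. TAGLN went the other way, with an intron change smaller than its exon change by 1.42 (SE 0.30, adjusted p = 0.0141), as 1.81% of all genes did. In siControl before serum its intron reads per kilobase averaged 49.3% of its exon reads per kilobase. The other members ranged from 0.315% (TPM4) to 3.28% (TPM1). How many TAGLN intron reads came from the antisense gene PCSK7 was not tested. ZYX (0.92, SE 0.31, adjusted p = 0.110), ACTN1 (0.83, SE 0.23, adjusted p = 0.0531) and SRF (-0.28, SE 0.27, adjusted p = 0.670) did not pass.

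The intron share of a gene's fragments lay higher after serum than before, without overlap, for 8 of the 10 genes in siControl, 7 in siPFDN2 and 4 in siPFDN5. It lay lower for TAGLN in each siRNA and also for SRF and ACTN1 in siPFDN5. How many of all genes separated in these ways was not counted. The intron share of the whole library went from 15.0% and 17.3% to 20.6% and 16.2% in siControl. In siPFDN2 it went from 16.2% and 16.1% to 20.9% and 19.3%, and in siPFDN5 from 22.8% and 25.9% to 17.2% and 14.8%. Its part in the counts of genes was not tested. In siControl introns held 6.55% and 6.61% of the VCL fragments before serum and 42.9% and 22.3% after it, and 5.55% and 3.80% of the MYL9 fragments before and 33.9% and 25.2% after. With siPFDN2 the VCL share went from 6.56% and 5.65% to 23.11% and 23.01%, and that of MYL9 from 4.92% and 4.68% to 26.2% and 20.5%. In the siPFDN5 libraries VCL stood at 9.09% and 7.67% before and 9.79% and 10.9% after, and MYL9 at 6.33% and 2.77% before and 11.2% and 10.8% after. After serum the shares of both genes were thus lowest in the siPFDN5 libraries, whose introns also held a small part of the whole library. SRF had a share between 1.03% and 2.86% in all 12 libraries. Its libraries before and after serum overlapped in siControl and siPFDN2, and in siPFDN5 it went from 2.85% and 2.20% to 1.27% and 1.03%. TAGLN went from 14.3% and 18.2% to 7.79% and 6.93% in siControl. The first siControl library after serum had the higher share of that pair for 9 of the 10 genes, FLNA being the exception.

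**Figure D3:**
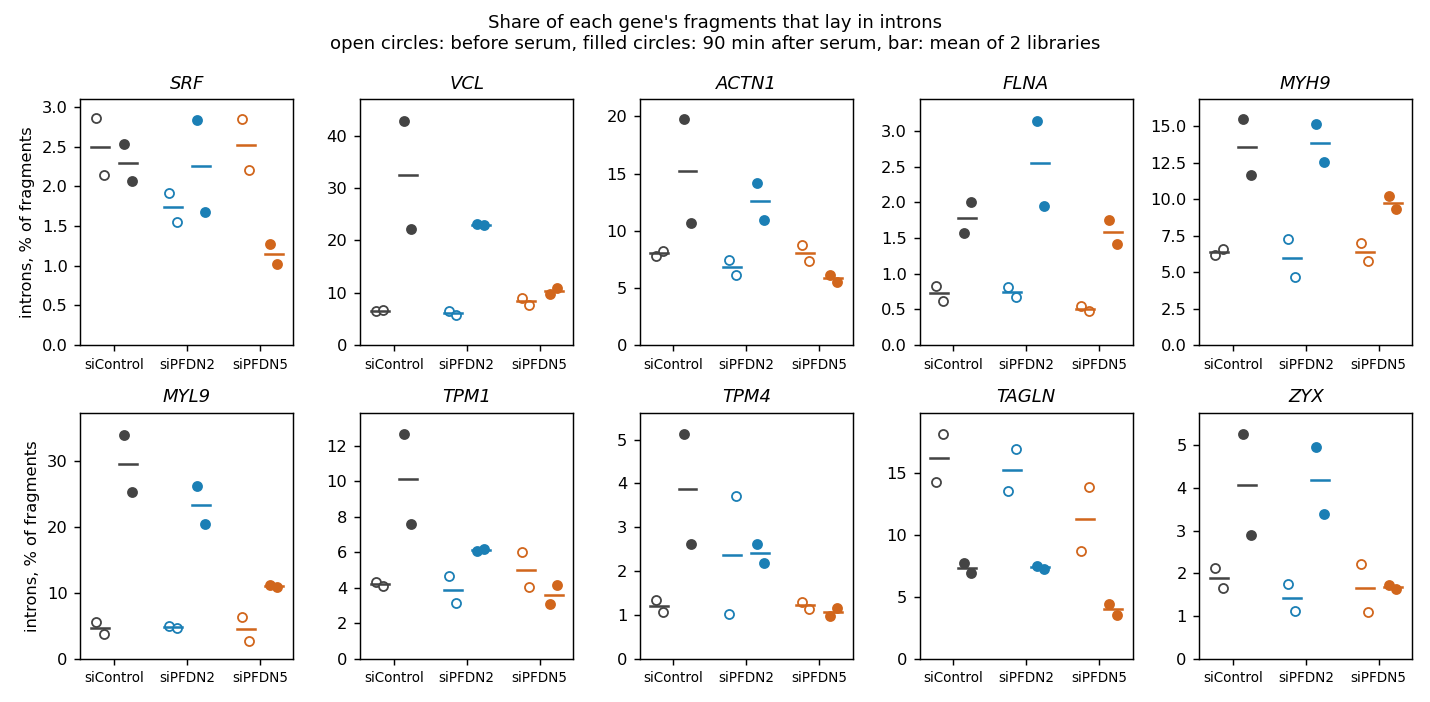
Percent of each gene's fragments that lay in introns (linear axes from 0) in every library, with open circles before serum, filled circles 90 min after serum, colours for the siRNA and bars at the mean of 2 libraries. VCL reached 42.9% and 22.3% in siControl, while SRF lay between 1.03% and 2.86% and TAGLN was lower after serum in each siRNA.

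In siPFDN2 the intron change was larger than the exon change for 6 genes (2.30% of all genes): MYL9 (2.79, SE 0.29, adjusted p = 0.000109), VCL (2.40, SE 0.26, adjusted p = 0.000127), FLNA (1.97, SE 0.30, adjusted p = 0.00212), ZYX (1.84, SE 0.31, adjusted p = 0.00404), MYH9 (1.56, SE 0.25, adjusted p = 0.00275) and ACTN1 (1.17, SE 0.23, adjusted p = 0.0101). In siPFDN5 it was larger for FLNA (2.46, SE 0.31, adjusted p = 0.000548), MYL9 (2.24, SE 0.30, adjusted p = 0.000875), MYH9 (1.49, SE 0.25, adjusted p = 0.00248) and VCL (1.16, SE 0.25, adjusted p = 0.00983), where 10.1% of all genes were called. TAGLN and SRF were at -0.99 and 0.55 in siPFDN2 and at -0.87 and -0.34 in siPFDN5, and none of these passed (2.51% and 11.2% of all genes were called lower). Averaged over the 3 siRNAs, 8 genes had the larger intron change (9.36% of all genes), TAGLN the smaller (-1.09, SE 0.20, adjusted p = 0.00135, with 12.3% of all genes lower), and SRF showed no detectable difference (-0.02, SE 0.17, adjusted p = 0.942). Called in each siRNA were MYL9, VCL, FLNA and MYH9.

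With exon factors for the introns, 2, 3 and 4 of the genes were called in siControl, siPFDN2 and siPFDN5, where 0.978%, 0.592% and 44.7% of all genes were called. The count in siPFDN5 is near that share. In siControl the called genes were MYL9 (3.10) and VCL (2.72), in siPFDN2 MYL9 (2.59), VCL (2.21) and FLNA (1.77), and in siPFDN5 FLNA (1.64), MYL9 (1.44), TAGLN (-1.67) and SRF (-1.16), with VCL at 0.34 (adjusted p = 0.462). The calls of MYL9 in all 3 siRNAs, of VCL in siControl and siPFDN2 and of FLNA in siPFDN5 held without any 1 library. Others rested on single libraries: leaving out a siControl library before serum, or the first after it, ended the siControl calls of MYH9, TPM1, TPM4 and TAGLN (adjusted p up to 0.213), and FLNA lost its own without any 1 of 8 libraries (0.74 to 1.38, adjusted p 0.0545 to 0.246). In siPFDN2 the calls of FLNA, MYH9, ZYX and ACTN1 were lost without the first library after serum, and that of ACTN1 also without the second. Leaving out the library that stood apart also ended the calls of ACTN1 (0.92) and ZYX (1.36). VCL in siPFDN5 lost its call without any 1 of the 4 siPFDN5 libraries (1.07 to 1.22, adjusted p 0.0688 to 0.0899), and MYH9 without the first after serum (1.39, adjusted p = 0.0523).

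**Figure D4:**
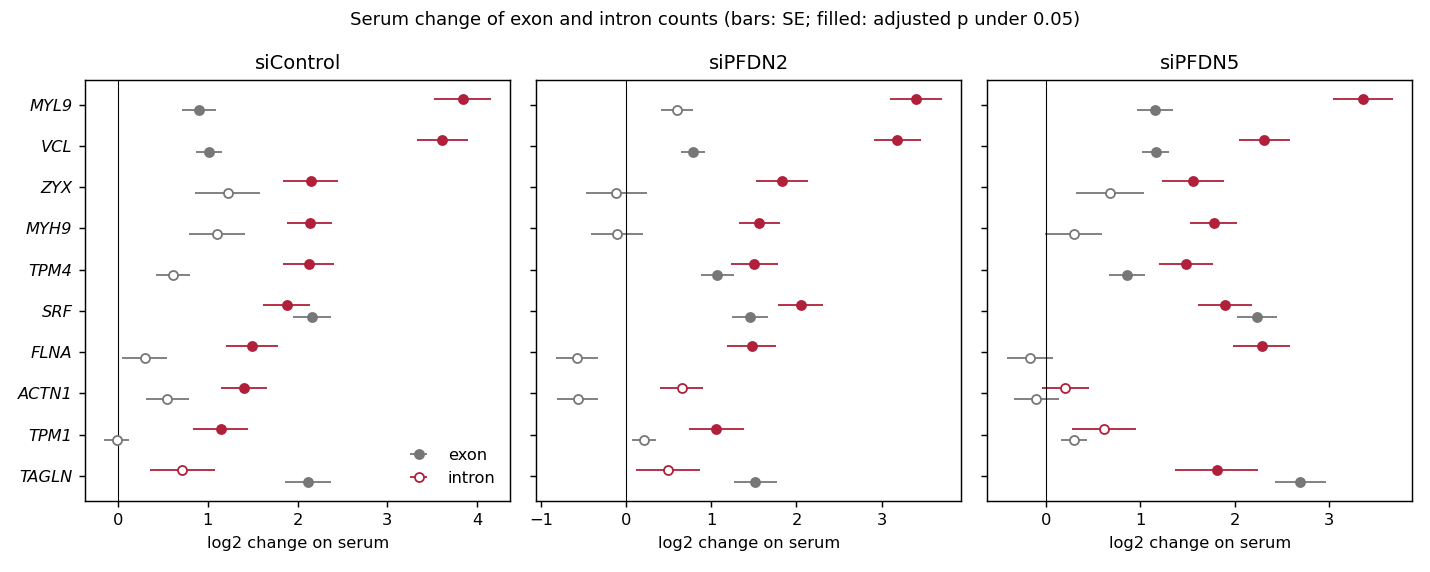
Serum change on the log2 scale of exon counts (grey) and intron counts (red) for each gene in siControl, siPFDN2 and siPFDN5, with bars for the SE and filled points where the adjusted p was under 0.05. MYL9 and VCL had intron changes of 3.84 and 3.61 and exon changes of 0.91 and 1.01 in siControl, whereas for SRF the intron and exon changes were 1.88 and 2.16.

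The design also asks whether the siRNAs against prefoldin subunits changed these genes. The comparisons of both knockdowns share the siControl libraries. Over exons none of the 10 genes was called with siPFDN2 or siPFDN5 against siControl, before or after serum, by edgeR or by DESeq2, which called between 0.00804% and 3.79% of all genes. At an unadjusted p under 0.05 edgeR gave 4 of the 10 with siPFDN2 before serum, 1 with siPFDN5 before, 1 with siPFDN2 after and 2 with siPFDN5 after. In the same order 3451, 2265, 1205 and 4359 of the 24889 genes tested reached that p. The counts of 1, 1 and 2 are thus not far from what all genes gave. At the adjusted threshold edgeR called 0% of all genes in the first 3 of these comparisons and 0.00402% with siPFDN5 after serum, so this fit called almost nothing in the exon comparisons. Without the siPFDN2 library that stood apart, exon calls against siControl were made after serum for FLNA (-0.58 with siPFDN2 and -0.65 with siPFDN5), MYH9 (-0.49 and -0.74), and, with siPFDN2 alone, ACTN1 (-0.48) and ZYX (-0.39). With siPFDN5 MYL9 (0.32) and TPM4 (0.38) were then called higher after serum, and ACTN1 (0.56) and ZYX (0.47) higher before it. In that fit 6.09% of all genes were called with siPFDN2 after serum, 26.5% with siPFDN5 after and 10.8% with siPFDN5 before it, so the siPFDN5 counts of 4 and 2 in 10 are not far from what all genes gave. The difference of the exon serum response from siControl was called for none of the 10 by either tool in the fit of all libraries. edgeR called no other gene either (0%), while DESeq2 called 0.00402% of all genes for siPFDN2 and 0.873% for siPFDN5. At edgeR's unadjusted p under 0.05 there were 5 of the 10 for siPFDN2 and 0 for siPFDN5, beside 1784 and 3231 of the 24889 genes tested. Without the library that stood apart, 4 passed for siPFDN5 (MYH9 at -0.79, ACTN1 at -0.64, ZYX at -0.53 and FLNA at -0.45, with 18.7% of all genes called) and still none for siPFDN2.

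Over introns, siPFDN2 gave no call among the 10 genes at either time or for the serum response, by edgeR or by DESeq2. In all genes edgeR called none (0%), and DESeq2 called 0.0152% before serum and none otherwise. At edgeR's unadjusted p under 0.05 there were 0 of the 10 before serum, 0 after it and 1 for the difference of the response. Of the 19731 genes tested 1129, 940 and 827 reached that p. In the libraries labelled siPFDN5, VCL introns were lower than in siControl after serum by 1.24 (SE 0.26, adjusted p = 0.0324), where 1.69% of all genes were lower and 3.8% changed in either direction, and those of ACTN1 stood at -0.86 (SE 0.25, adjusted p = 0.0585). Before serum none of the 10 passed, by edgeR or by DESeq2, while edgeR called 0.34% and DESeq2 2.19% of all genes. At edgeR's unadjusted p under 0.05 there were 2 of the 10, beside 3670 of the 19731 genes tested. After serum 6 of the 10 reached that p, beside 5466 of the 19731. The median difference of the 10 genes after serum was -0.64, and that of all genes tested -0.053. The serum response itself was smaller than in siControl for VCL, by 1.30 (SE 0.36, adjusted p = 0.0360), and for ACTN1, by 1.20 (SE 0.36, adjusted p = 0.0402). All genes called lower in that comparison were 8.95% of those tested (12.5% in either direction), so 2 of 10 is not far from what all genes gave. Relative to the exons, the difference was -1.41 for VCL (SE 0.36, adjusted p = 0.0536) and 1.29 for FLNA (SE 0.43, adjusted p = 0.0699). None of the 10 passed by edgeR, with 0.00575% of all genes called (DESeq2 was not run on intron against exon). At an unadjusted p under 0.05 there were 2 of the 10 beside 5418 of the 17390 genes tested, so 2 of 10 is not above what all genes gave.

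The VCL and ACTN1 differences rest on the first siControl library after serum, with 992 intron CPM for VCL and 142 for ACTN1 against 628 and 92.2 in the second. Without it the VCL response differed by -0.93 (adjusted p = 0.153) and that of ACTN1 by -0.86 (adjusted p = 0.159), and without the second by -1.60 (adjusted p = 0.00113) and -1.49 (adjusted p = 0.00199). The level of VCL after serum differed by -0.88 (adjusted p = 0.289) without the first. Each of the 3 calls was lost without any 1 of 9 libraries, the exceptions being the second siControl library after serum and the siPFDN2 libraries before it. With exon factors the same differences of response were -2.35 for VCL and -2.25 for ACTN1 (adjusted p 0.00805 in each), and 7 of the 10 genes were called lower, but 36.9% of all genes were then called (7269 lower and 21 higher), and their median had moved by -0.97. PFDN5 did not pass as lowered in the libraries labelled siPFDN5 after serum, so these differences are between libraries of those labels.

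Related genes were described by lists. In siControl 1.73% of all genes tested were called higher and 0.394% lower over exons, and 6.25% were called higher over introns. Of 20 SRF cofactors and upstream actin regulators 19 were tested over exons, and in siControl 1 was called higher and 0 lower, with a median log2 change of 0.043. The 1 gene was RHOB, which encodes a small GTPase (1.00, SE 0.14, adjusted p = 0.00267), and it too lost its call without the first siControl library before serum (0.88, adjusted p = 0.0778). Their introns gave 3 calls higher of 19, and 0 without the first siControl library before or the first after serum. Of 32 further actin-cytoskeleton genes 4 were called higher over exons and 0 lower (median 0.21), and 18 of 30 over introns (median 1.30). The exon count of this list was lower without the first siControl library before serum. It was higher without either siPFDN2 library before serum, and without the second of these more of all genes were called as well. The largest exon changes were those of ACTG2, an enteric smooth muscle actin (4.59, SE 0.60, adjusted p = 0.00221), and CNN1, which encodes calponin (3.66, SE 0.29, adjusted p = 4.53e-05), both at low levels of at most 0.595 and 1.86 CPM without TMM scaling. ACTG2 lost its call without the first siControl library before serum (4.29, adjusted p = 0.0543). The other 2, named after their values were seen, were FHL2 (1.15, SE 0.14, adjusted p = 0.00116), a LIM-domain protein, and LIMA1 (0.81, SE 0.18, adjusted p = 0.0429), an actin-bundling protein whose call was lost without any 1 of 10 libraries (0.74 to 0.87, adjusted p 0.0600 to 0.390). Of 12 immediate-early genes with known SRF sites 11 were called higher over exons in siControl (median 4.76), led by FOSB (7.17, SE 0.40, adjusted p = 4.27e-06) and CYR61 (6.46, SE 0.30, adjusted p = 1.13e-06).

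The same lists were set side by side for the intron change against the exon change. In siControl the intron change of the immediate-early genes was called smaller than the exon change for 4 of the 8 genes tested and larger for 0 (median of intron minus exon -2.44). For the further actin-cytoskeleton genes it was larger for 13 of 30 and smaller for 0 (median 0.74), and for the 10 genes described here larger for 6 and smaller for 1 (median 1.10), beside a median of -0.026 over all genes tested. Of all genes tested 2.78% were called larger and 1.81% smaller. Among the 10 genes TAGLN had a negative value that passed the test. SRF had a negative value with no detectable difference from 0, and the other 8 had positive ones. These are counts and medians, and the difference between lists was not tested.

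The 5 genes whose exon level followed that of SRF most closely over the 6 group means were ZC3H12A (Pearson's r 0.998), VCL (0.998), AMOTL2 (0.995), MAFK (0.995) and PPP1R15A (0.995), among 11196 genes with a mean log2 CPM of at least 3. The group means share their 12 libraries, and r over 6 points is a description. Among the members r to SRF was 0.986 for TAGLN, 0.954 for MYL9, 0.863 for TPM4, 0.859 for ZYX, 0.726 for MYH9, 0.544 for TPM1, 0.034 for ACTN1 and -0.14 for FLNA. VCL was the only member among the 5. Per kilobase of exon, levels in siControl before serum ran from 56.1 CPM for FLNA through 32.5 for TPM4, 28.6 for MYH9 and 21.8 for VCL to 11.5 for ZYX, 11.1 for ACTN1, 8.45 for SRF, 6.99 for MYL9, 1.37 for TPM1 and 0.509 for TAGLN. After serum SRF stood at 37.8, VCL at 43.9 and TAGLN at 2.20 CPM per kilobase in siControl.

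Estimated counts per transcript showed which tropomyosin and actinin messages these were. TPM4-201 held 80.1% to 83.8% of the TPM4 estimate in all 12 libraries and TPM4-202 13.4% to 19.03%. ENST00000404484 held 58.1% to 75.1% of TPM1, and ENST00000559397 16.6% to 30.4% in 11 libraries but was listed at 0 in the siPFDN2 library that stood apart. ACTN1-201 held 40.4% to 73.6% of ACTN1, and ACTN1-205 was at 37.4% in that same library against 0% to 13.9% in the others. Transcripts of 1 gene share most of their sequence, so these shares are estimates, and they were not tested.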

How the data were processed

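RNA-seq libraries of HCT116 cells (6 groups of 2, groups and replicate numbers from the sample titles) were analysed from deposited tables. The authors deposited counts of fragments per gene over gene bodies and over exons, made with featureCounts 1.5.2 per the file headers (both ends required, overlapping genes each credited with the fragment, no strand option, Ensembl release 87). The deposited expected counts (estimated counts per transcript, unrounded) came with kallisto 0.43 named in the submitters' processing notes, and were summed per gene and rounded only as an alternative. 6 columns of each table matched no sample label and were not used. Of 58051 genes, 57447 were found in GENCODE release 29.

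Intron counts were gene-body minus exon counts (never negative in 696612 cells). edgeR 4.0.16 in R 4.3.3 was fitted to all 12 libraries for exons and for introns, each with filterByExpr, TMM factors of its own, 6 group means and the robust quasi-likelihood test, two-sided. Intron minus exon changes were tested on 24 columns with the library as a block. Calls are Benjamini-Hochberg adjusted p under 0.05 over all genes tested, in 10 comparisons per layer (6 for intron minus exon). The prior count was 2, and SE came from the change and the test statistic. Scripts were tested on simulated data. Depth limits precision: exon totals were 46158398 to 114454288 per library.

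The members, lists and tests were chosen with earlier results of these data known, so no list is independent evidence. Named beside the members were at most 2 called genes of each list with the largest exon change in siControl in each direction, the 5 genes most like SRF, and transcripts with at least 10 percent of TPM1, TPM4 or ACTN1 in a group mean. Alternatives were other scalings and filters, GC correction, a replicate block, DESeq2 1.42.0, fits of only the groups compared, gene-body counts, transcript estimates, exon factors for introns, genes without overlap, each library left out, and, chosen after seeing the data, leaving out both siPFDN5 libraries after serum. Replicate numbers did not pair the libraries.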

Additional observations from a re-analysis of the deposited data

Results flagged for a closer look

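For 2 of the genes the serum response over introns differed between siRNAs by a test of the difference itself. In the libraries labelled siPFDN5 it was smaller than in siControl for VCL, with a difference of -1.30 on the log2 scale, and for ACTN1, with -1.20 (edgeR adjusted p 0.0360 and 0.0402). Of all genes 12.5% were called in that comparison and 8.95% lower, so 2 of 10 is not far from what all genes gave. VCL introns rose in both siPFDN5 libraries and both siControl libraries, while ACTN1 introns went from 58.0 and 53.8 CPM to 62.2 and 66.7 in siPFDN5. Each call was lost without any 1 of 9 libraries, among them the first siControl library after serum (-0.93 and -0.86, adjusted p 0.153 and 0.159). PFDN5 was not detectably lowered in the siPFDN5 libraries after serum, and its part in the difference was not tested.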

How the results depend on the processing

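Of the 82 called values of the 10 genes, all kept their sign under every alternative run, and 48 stayed called in all. The number of the 10 genes called was within 1.5 times of the reported one in 241 of 287 combinations of comparison and setting and in 252 of 312 with 1 library left out. The counts below describe how calls among the 10 genes moved with the setting, and the share of all genes called moved too. A count with no such share beside it is not a result about these genes. In fits of only the groups compared, exon calls on serum became 8 in siControl, 0 in siPFDN2 and 9 in siPFDN5, those against siControl 3 for siPFDN2 after, 4 for siPFDN5 after and 3 for siPFDN5 before serum, and the siPFDN5 difference of response 4. Intron calls against siControl were then 0 for siPFDN5 after and 1 before serum. With no filter on low counts there were 7 exon calls on serum in siControl, 4 for siPFDN2 before serum, 2 for siPFDN5 after it, 4 for the siPFDN2 difference of response, and over introns 3 for siPFDN5 after and 1 before serum. Intron minus exon differences of response for siPFDN5, none as reported, were 2 with no filter, 1 with at least 10 counts in every library, 1 with the GC trend removed and 4 with exon factors for introns. GC removal gave 8 exon calls on serum in siControl and, for siPFDN5 after serum, 3 over exons and 3 over introns. With library size only, siPFDN2 introns gave 5 on serum (390 of all genes higher and 7253 lower). On the same scaling siPFDN5 introns gave 8 after serum (35 and 5789), 2 before it (71 and 1054) and 1 for the difference of response (237 and 1762). That difference gave 0 by upper-quartile scaling (1250 and 982). DESeq2 gave 2 for siPFDN5 introns after serum, with 18.2% of all genes called. Exon factors for introns gave 5 on serum in siPFDN5 (46.5% of all genes called), 8 for siPFDN5 after serum (40.9%) and 7 for its difference of response (36.9%). Intron minus exon calls were then 2 in siControl (119 of all genes higher and 51 lower) and 3 in siPFDN2 (41 and 62). Genes without overlap leave only SRF and FLNA to test. Their intron calls were 2 in each siRNA and on average, and 0 for siPFDN5 after serum and for its difference of response, and their intron minus exon calls were 1 in each siRNA and on average. Replicate numbers did not pair the libraries (r of replicate differences -0.325 to 0.631 over 15 pairs of groups). With the replicate block the siPFDN5 difference of response had 1 intron call in place of 2, and with the block and GC removal siPFDN5 after serum had 3 over exons and 3 over introns. Leaving out 1 library at a time gave, on serum, exon calls of 2 to 9 in siControl, 0 to 10 in siPFDN2, 3 to 8 in siPFDN5 and 5 to 10 on average, intron calls of 7 to 9, 6 to 9, 7 to 8 and 10, and intron minus exon calls of 2 to 9, 2 to 8, 2 to 6 and 9. Against siControl, exon calls were 0 to 10 for siPFDN2 before and 0 to 4 after serum, and 0 to 2 and 0 to 4 for siPFDN5. Intron calls were 0 to 1 and 0 for siPFDN2 and 0 to 1 and 0 to 4 for siPFDN5. For the difference of response they were 0 to 9 over exons, 0 to 1 over introns and 0 to 1 for intron minus exon in siPFDN2, and 0 to 4, 0 to 3 and 0 to 3 in siPFDN5. The highest exon counts of siPFDN2 came without the first siPFDN2 library before serum, which leaves the library that stood apart alone in its group. The cause of these changes was not tested.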
